A study of Mus musculus with 12 samples.

Results

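A set of 10 genes that are read in tissue as signs of phagocytes was followed through the thyroids of 12 mice. They were *Lyz2*, *Cd68* and *Gpnmb* of the lysosome, the complement genes *C1qa*, *C1qb* and *C1qc*, the receptor genes *Trem2* and *Tyrobp*, and the secreted proteins *Lgals3* and *Spp1*, and they made up 10 of the 55536 genes in the deposited tables. The group was listed by name and was chosen by its fold changes between affected and unaffected thyroids, which were already known, so that difference is given for these genes as a description. Where the fit's calls of members are counted they describe the fit and are not evidence for the group. RNA sequencing (total RNA depleted of ribosomal RNA, 1 library per mouse) was used to ask how gene expression differed between thyroids with and without dysplasia. The 5 affected mice were C57BL/6NTac (B6NTac) animals from Taconic whose thyroids carried the label of the dysplasia phenotype, which the study ties to a LINE-1 retrotransposon in an intron of *Tg*, the thyroglobulin gene. The 7 unaffected mice were 6 C57BL/6NCrl (B6NCrl) animals from Charles River and 1 animal from Taconic (replicate 14) that the study's methods call an unaffected KO without naming the gene. Because all affected mice were B6NTac and 6 of 7 unaffected mice were B6NCrl, phenotype and colony cannot be told apart. The labels give no sex, age, litter, sequencing batch or LINE-1 genotype for any mouse. Total estimated counts ranged from 20170500 to 23319948 in the affected mice and from 11434901 to 22401136 in the unaffected mice, the lowest being that of the unaffected B6NTac mouse.

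Macrophages and other phagocytes take up dead cells, lipid and protein and break them down in lysosomes filled with acid hydrolases. C1q, a complex of A, B and C chains made largely by tissue macrophages, starts the classical complement pathway and tags material for uptake. TREM2 is a lipid-sensing receptor that signals through the adaptor TYROBP (also called DAP12), and phagocytes loaded with lipid or debris characteristically make GPNMB, galectin-3 (*Lgals3*) and osteopontin (*Spp1*). In the thyroid, macrophages lie between the follicles, while galectin-3 can also be made by follicular cells, where pathologists use it as a stain for human thyroid tumours. In bulk tissue, more cells of a type and more RNA per cell cannot be told apart.

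Promoter letters are shown first for the members where a searched motif stood upstream of the gene. Of the 10 members, 8 had a RefSeq promoter sequence (GRCm38.p6), in 9 windows since *Spp1* had more than 1 start. The search covered the 250 bases before each start, on both strands, for the core of the macrophage factor PU.1 (GAGGAAG), for the AP-1 site (TGANTCA), and for E-boxes in the CATGTG form bound by the lysosomal and pigment-cell factor MITF and in the CACGTG form. No matches in the members' windows overlapped each other. In the windows below, written 5′ to 3′ on the strand of the gene, capitals mark a match on either strand. The *Cd68* window is chr11:69666171-69666420 (minus strand), that of *Trem2* is chr17:48346151-48346400 (plus strand), that of *C1qb* is chr4:136886201-136886450 (minus strand) and that of *Spp1* is chr5:104434861-104435110 (plus strand).
Cd68: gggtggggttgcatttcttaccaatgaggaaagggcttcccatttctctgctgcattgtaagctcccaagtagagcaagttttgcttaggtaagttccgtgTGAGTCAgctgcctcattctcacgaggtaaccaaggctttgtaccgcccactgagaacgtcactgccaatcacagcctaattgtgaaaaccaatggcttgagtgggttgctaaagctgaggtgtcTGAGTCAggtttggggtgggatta
Trem2: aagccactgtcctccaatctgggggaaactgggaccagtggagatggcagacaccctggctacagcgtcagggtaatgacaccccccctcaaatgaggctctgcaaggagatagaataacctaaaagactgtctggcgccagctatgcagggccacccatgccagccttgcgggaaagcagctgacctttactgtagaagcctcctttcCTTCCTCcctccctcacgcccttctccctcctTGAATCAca
C1qb: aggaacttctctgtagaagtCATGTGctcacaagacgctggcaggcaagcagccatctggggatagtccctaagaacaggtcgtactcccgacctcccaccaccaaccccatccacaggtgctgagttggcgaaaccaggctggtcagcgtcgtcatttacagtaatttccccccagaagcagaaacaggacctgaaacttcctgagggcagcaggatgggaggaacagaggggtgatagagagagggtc
Spp1: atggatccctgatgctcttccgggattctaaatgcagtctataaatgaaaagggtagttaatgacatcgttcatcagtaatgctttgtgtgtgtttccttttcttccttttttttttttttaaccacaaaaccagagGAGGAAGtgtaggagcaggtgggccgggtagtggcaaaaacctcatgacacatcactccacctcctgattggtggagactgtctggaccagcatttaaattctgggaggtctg

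The *Cd68* window held the AP-1 spelling TGAGTCA at both 149 and 24 bases before the start. In the *Trem2* window, the PU.1 core (read on the other strand as CTTCCTC) began 41 bases and an AP-1 spelling (TGAATCA) 9 bases before the start. *Spp1* had the PU.1 core at 113 bases and *C1qb* the CATGTG form at 230 bases. Over all 32851 promoter windows of the same length, the PU.1 core was present in 10.61%, the AP-1 site in 6.75%, the CATGTG form in 12.25% and the CACGTG form in 6.02%. Among the 9 member windows they were in 3, 2, 2 and 0, each in a minority of the members. *C1qc* (PU.1 core and CATGTG) was the other member with a match. For *Lyz2*, *Gpnmb* and *Lgals3*, which differed most between the groups, these letters were not found in the window.

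Except for *Spp1*, the members lie apart from other genes' exons in the annotation. *Spp1* (chromosome 5, 104435118 to 104441050, plus strand, GRCm38) shares 309 bases of exon with *Gm42793* on the same strand and was marked as confounded by the authors. The 3 C1q genes sit side by side on the minus strand of chromosome 4, with *C1qb* from 136880129 to 136886187, *C1qc* from 136889804 to 136893065 and *C1qa* from 136895917 to 136898803. *Lyz2* (chromosome 10, 117277331 to 117282321, minus strand) has a closely similar neighbouring paralog, *Lyz1*, and the division of reads between them is uncertain. The other members are *Cd68* on chromosome 11 (69664213 to 69666153), *Gpnmb* on 6 (49036546 to 49070929), *Trem2* on 17 (48346401 to 48354147), *Tyrobp* on 7 (30413760 to 30417585) and *Lgals3* on 14 (47367751 to 47386160). All 10 passed the filter on low counts, and each was counted in every mouse.

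In the libraries of the unaffected mice, *Lyz2* and *Spp1* were the most abundant of the group and *Trem2* the least abundant. On the FPKM scale, which corrects for transcript length, the unaffected level of *Lyz2* was 33.6 ± 11.4 (SD, n = 7), that of *Spp1* 25.8 ± 5.52 and those of *C1qa*, *C1qc* and *C1qb* 11.99 ± 4.58, 11.7 ± 5.05 and 11.3 ± 4.57. *Tyrobp* (5.28 ± 2.03), *Cd68* (4.06 ± 1.63), *Lgals3* (3.73 ± 1.14), *Gpnmb* (2.199 ± 0.593) and *Trem2* (0.646 ± 0.470) followed. The 3 C1q genes did not differ beyond their spread, and neither did *Tyrobp*, *Cd68* and *Lgals3* from each other. All unaffected libraries also held parathyroid markers, with a sum of 3682 to 8100 CPM (scaled counts), and replicates 14 and 21 held thymus markers. In affected replicate 4, where the parathyroid sum was 63.9 CPM, *Spp1* was at 2.04 FPKM. It was at 23.3 to 48.5 FPKM in the other affected mice. The part of parathyroid tissue in the rank of *Spp1* was not tested. In affected thyroids the order was kept except for *Lgals3*, which stood behind *Lyz2* and *Spp1* with 27.2 ± 14.0 (SD, n = 5) against 112 ± 41.9 for *Lyz2* and 31.3 ± 18.8 for *Spp1*, and except for *C1qb* and *C1qc*, which were nearly equal.

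Across the group, *Lgals3* had the largest difference between affected and unaffected mice and *Spp1* the smallest, and 3 members (*Lyz2*, *Gpnmb* and *Lgals3*) were higher in every affected mouse than in any unaffected mouse. Of all 19661 genes tested, 3.78% had all affected mice above all unaffected mice. With edgeR's quasi-likelihood test adjusted over all genes, the 4 members *Lyz2*, *Cd68*, *Gpnmb* and *Lgals3* were called higher in affected mice, against 7.63% of genes tested. The other 6 members were not called. Since the members were chosen with this contrast known, nothing is read from these counts. The log2 fold change was positive for all 10 members, with a median of 0.82 against 0.0052 over all genes tested. Of the genes called, 55.6% were higher. With library totals that leave out *Tg* and without TMM factors the share was 26.1%, the median of all genes moved to -0.13 and that of the members to 0.68, all 10 remaining positive.

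**Figure D1:**
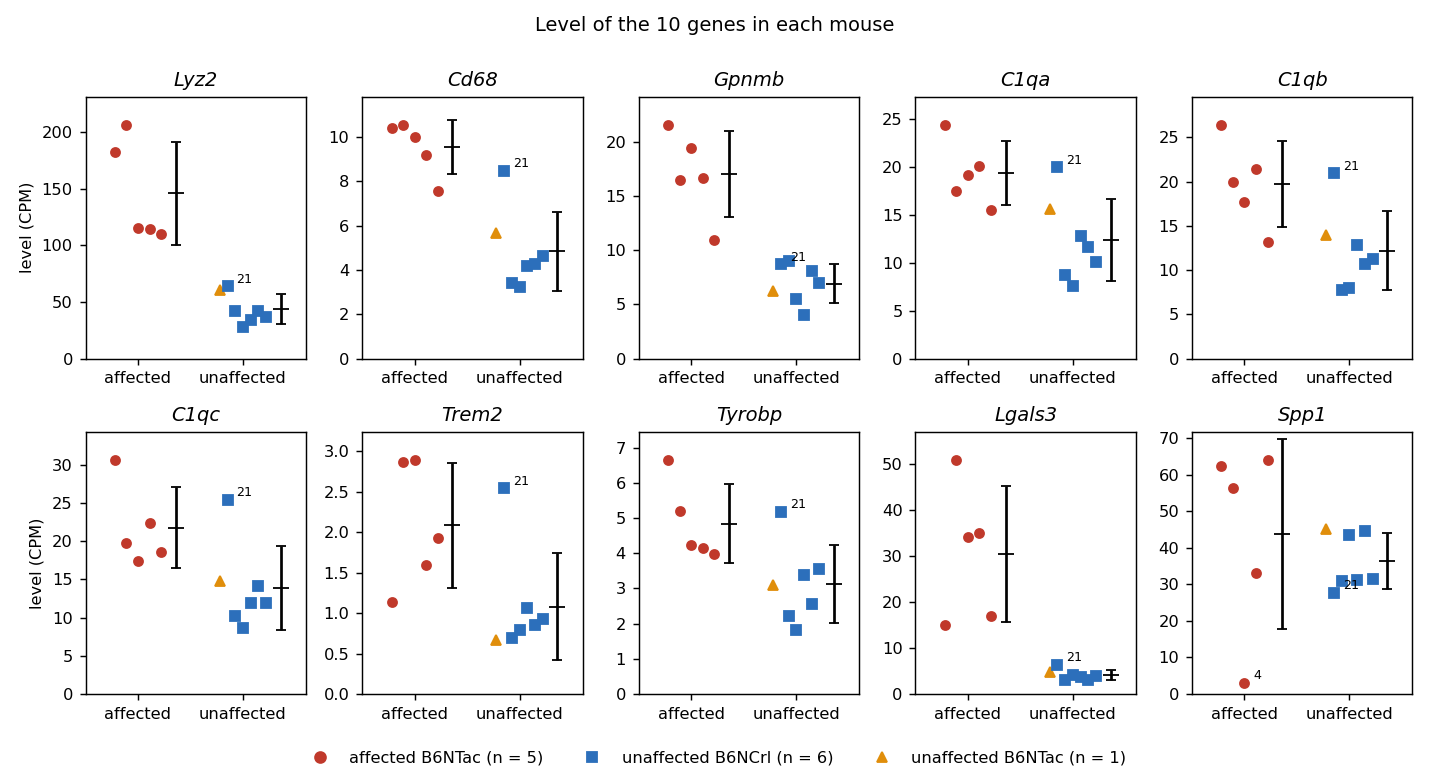
Level of each of the 10 genes in CPM (scaled counts) in each mouse, with a bar for the mean ± SD of the 5 affected and the 7 unaffected mice; unaffected replicate 21 and, for *Spp1*, affected replicate 4 are numbered. For *Lyz2*, *Gpnmb* and *Lgals3* all affected mice sit above all unaffected mice, and for the C1q genes, *Trem2* and *Tyrobp* replicate 21 reaches the affected range.

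Among the lysosomal members, *Lyz2* encodes lysozyme M, the bactericidal enzyme that macrophages and neutrophils store and secrete. Its level was 182, 206, 115, 115 and 110 CPM (counts scaled to the library total and TMM factor) in affected replicates 1, 3, 4, 5 and 6. It was 60.4 CPM in the unaffected B6NTac mouse and 63.6, 42.2, 27.8, 34.1, 42.3 and 36.6 CPM in B6NCrl replicates 21 to 26. The affected mice fell into a higher set (replicates 1 and 3) and a lower one, and the lower set was still above the highest unaffected mouse. The fitted log2 fold change was 1.73 (SE 0.23), or 3.32-fold.

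*Gpnmb*, a transmembrane glycoprotein that reaches the phagosome and lysosome of loaded macrophages, followed the same division without the split among affected mice. Affected replicates 1, 3, 4, 5 and 6 had 21.6, 16.5, 19.5, 16.7 and 10.98 CPM. The unaffected B6NTac mouse had 6.26 CPM and B6NCrl replicates 21 to 26 had 8.71, 8.97, 5.46, 4.02, 8.06 and 6.96 CPM. The groups were separated by the narrow step from 8.97 CPM (B6NCrl replicate 22) to 10.98 CPM (affected replicate 6), and the log2 fold change was 1.30 (SE 0.20). On the FPKM scale the same mice were nearly equal, at 2.750 and 2.754.

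*Cd68* codes for macrosialin, a heavily glycosylated protein of the lysosomal membrane of macrophages. Its levels in the affected mice were 10.4, 10.5, 9.97, 9.16 and 7.56 CPM. In the unaffected mice they were 5.68 CPM in replicate 14, 8.47 CPM in replicate 21 and 3.42, 3.25, 4.18, 4.25 and 4.64 CPM in replicates 22 to 26. Replicate 21 alone among the unaffected mice reached into the affected range, and the log2 fold change was 0.98 (SE 0.21).

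The C1q genes had higher means in affected mice, in groups that overlapped. They were not called by edgeR and were called higher by DESeq2, which called 2046 of all genes higher against 1500 by edgeR. *C1qa*, encoding the A chain, stood at 24.4, 17.5, 19.1, 20.1 and 15.6 CPM in affected replicates 1, 3, 4, 5 and 6. In the unaffected mice *C1qa* stood at 15.6 CPM in replicate 14, 19.97 CPM in replicate 21, and 8.69, 7.58, 12.8, 11.7 and 10.1 CPM in replicates 22 to 26. Replicates 14 and 21 were thus within the affected range and the other 5 unaffected mice were below it.

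For *C1qb* the affected mice had 13.1 to 26.4 CPM, with a median of 19.97 CPM in replicate 3, and the unaffected mice 7.72 to 20.9 CPM. For *C1qc* the ranges were 17.4 to 30.6 CPM and 8.61 to 25.4 CPM. In both genes affected replicate 1 was the highest of all mice, and replicate 21 was the highest unaffected mouse. The log2 fold changes were 0.65 (SE 0.22) for *C1qa*, 0.70 (SE 0.24) for *C1qb* and 0.65 (SE 0.24) for *C1qc*, and these differed by less than their errors.

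The shares of the 3 chains were close in the groups. Of the summed FPKM of the 3 genes, *C1qa* made up 34.1% ± 2.17 (SD, n = 5) in affected and 34.3% ± 1.85 (SD, n = 7) in unaffected mice. *C1qb* made up 32.8% ± 2.67 and 32.3% ± 2.05, and *C1qc* 33.0% ± 2.70 and 33.4% ± 2.55. Each difference was smaller than the spread between mice, at near-equal amounts of the 3 transcripts.

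*Trem2* was the scarcest member and the least precise, with 8 to 66 counts per mouse. Affected replicates 1, 3, 4, 5 and 6 had 1.14, 2.86, 2.89, 1.599 and 1.93 CPM. Replicate 14 had 0.668 CPM, replicate 21 had 2.54 CPM and replicates 22 to 26 had 0.693, 0.787, 1.06, 0.851 and 0.928 CPM. Apart from replicate 21 the unaffected mice were below all affected mice, although affected replicate 1 was so by little. The log2 fold change was 0.94 (SE 0.36).

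*Tyrobp*, the signalling partner of TREM2 and of other activating receptors of myeloid and NK cells, had a log2 fold change of 0.64 (SE 0.24). Affected mice ranged from 3.97 to 6.65 CPM, with replicate 1 highest. Unaffected mice ranged from 1.82 to 5.19 CPM, and here too only replicate 21 exceeded the lowest affected mouse.

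*Lgals3*, which encodes galectin-3, a lectin that binds damaged endosomes and lysosomes and is also secreted, stood out from the other members. Affected replicates 1, 3, 4, 5 and 6 had 15.0, 50.8, 34.0, 35.0 and 17.0 CPM. The unaffected B6NTac mouse had 4.84 CPM and B6NCrl replicates 21 to 26 had 6.26, 3.05, 4.13, 3.76, 3.12 and 3.81 CPM. Even the lowest affected mouse was well above the highest unaffected one, while the affected mice differed 3.39-fold among themselves. The log2 fold change was 2.88 (SE 0.30), or 7.34-fold.

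The order of affected mice by *Lgals3* was not the order by C1q. Replicate 1 had the highest level of all 3 C1q genes and the lowest of *Lgals3*, and replicate 3 had the highest *Lgals3*. The difference of *Lgals3* from the mean of the C1q genes on the log2 CPM scale ran from -0.84 in replicate 1 to 1.41 in replicate 3, and from -1.92 to -0.94 in the unaffected mice.

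*Spp1*, the gene of osteopontin, a secreted phosphoprotein that binds integrins and CD44, showed no common difference between the groups. Affected replicates 1, 3, 4, 5 and 6 had 62.5, 56.4, 3.05, 33.2 and 64.0 CPM. The unaffected mice had 45.2 CPM in replicate 14 and 27.6, 31.0, 43.6, 31.2, 44.7 and 31.4 CPM in replicates 21 to 26. Of the affected mice, 3 were above every unaffected mouse, replicate 5 was within the unaffected range, and replicate 4 was 21.0-fold below the highest affected mouse with 59 counts. The log2 fold change of 0.27 (SE 0.50) averages over these opposite positions, and it turned negative on the log2(FPKM + 1) scale (-0.19).

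**Figure D2:**
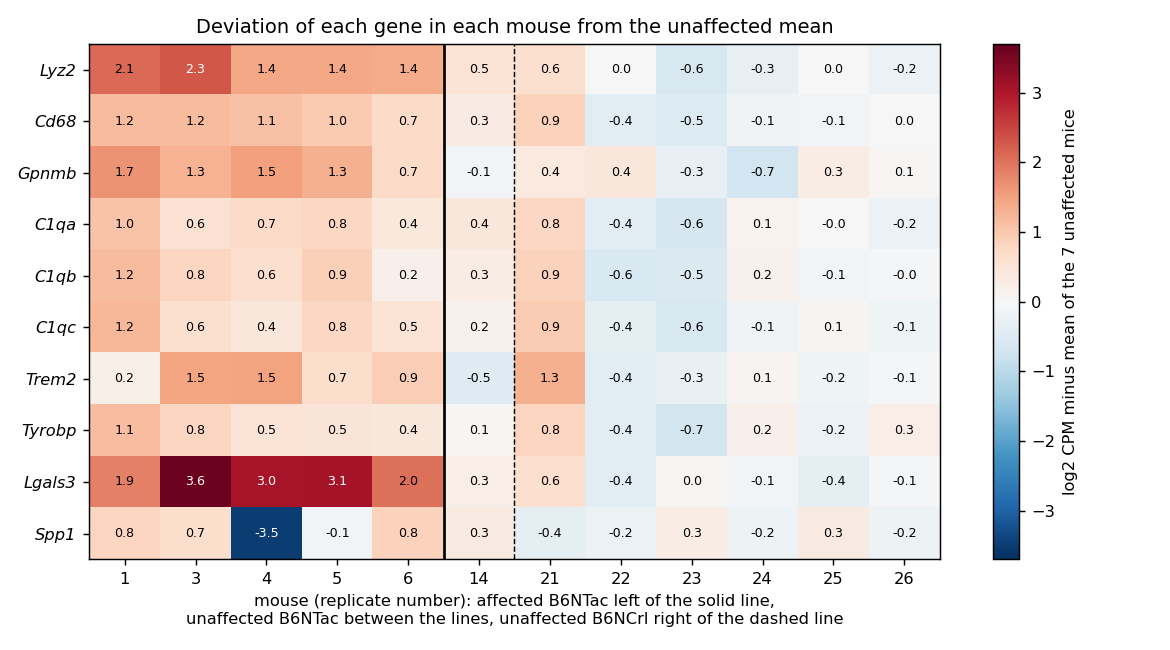
Log2 CPM of each gene in each mouse minus the mean of the 7 unaffected mice; columns are mice by replicate number and colour gives the sign and size. Replicate 21 is above the unaffected mean for every gene except *Spp1*, and affected replicate 4 is 3.5 below it for *Spp1* only.

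Beside these values stand the markers of other tissues, since the neck piece dissected as thyroid can include parathyroid, thymus, fat, muscle and airway. In unaffected replicates 14 and 21 the summed level of 12 T cell markers was 378 and 387 CPM, against 6.15 to 7.72 CPM in the other unaffected mice and 5.35 to 70.8 CPM in the affected mice. The 8 thymus markers summed to 635 and 423 CPM there, against at most 35.3 CPM in any other mouse, and *Rag1*, the recombinase of developing lymphocytes, was at 439 and 264 CPM. These 2 mice also had the highest unaffected sums of the 24 macrophage markers, 664 and 656 CPM against 333 to 405 CPM in the other 5, while the affected mice had 390 to 792 CPM. Much of that gap among unaffected mice lay in 1 marker, *Ptprc*, at 217 and 227 CPM against 12.25 to 21.7 CPM. The sums therefore do not compare macrophages alone. The replicate 21 values of *C1qa*, *C1qb*, *C1qc*, *Cd68*, *Trem2* and *Tyrobp* reported above therefore come from a library with thymus markers. What part thymus tissue has in those values was not tested.

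**Figure D3:**
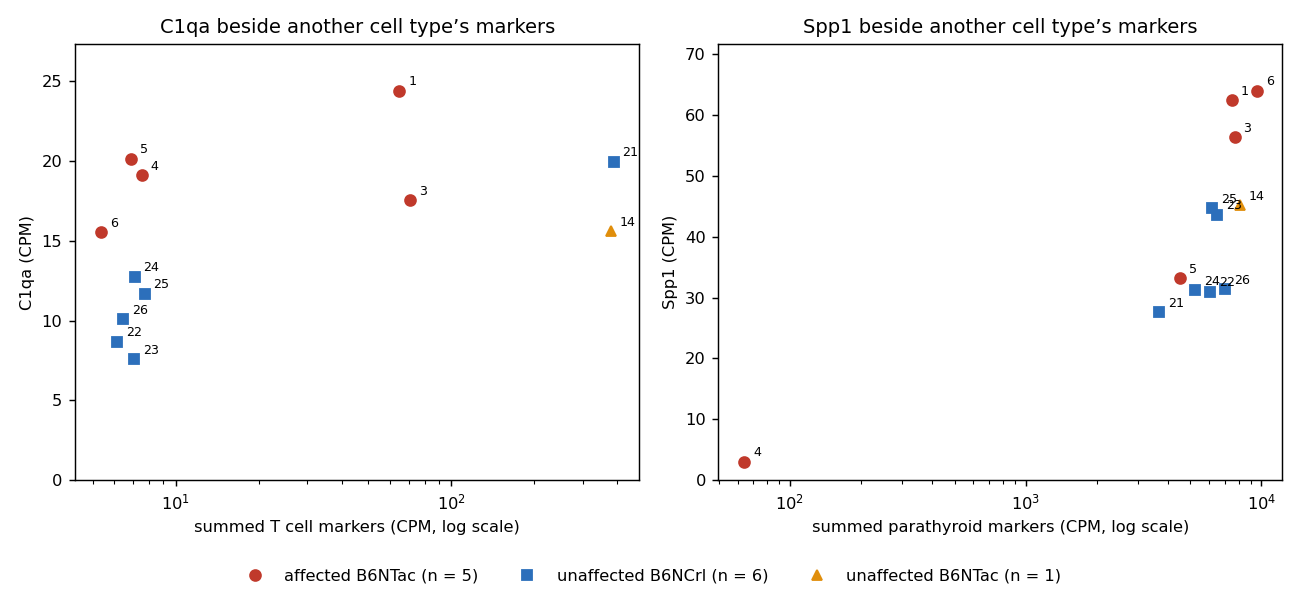
Left, *C1qa* (CPM) against the summed level of 12 T cell markers (CPM, log scale), and right, *Spp1* (CPM) against the summed level of 5 parathyroid markers (CPM, log scale), with 1 numbered point per mouse. Replicates 14 and 21 lie far right on the left panel with *C1qa* at 15.6 and 19.97 CPM, and affected replicate 4 lies far left on the right panel with *Spp1* at 3.05 CPM.

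Without replicates 14 and 21, a choice made after seeing the data, 9 of the 10 members were higher in all 5 affected mice than in all 5 remaining unaffected mice, against 5.48% of genes tested. The exception was *Spp1*. The same 9 members were called higher in that fit, against 5.61% of genes, and again nothing is read from the count. The log2 fold change became 0.93 (SE 0.16) for *C1qa*, 0.97 (SE 0.20) for *C1qb*, 0.94 (SE 0.18) for *C1qc*, 1.27 (SE 0.28) for *Trem2*, 0.84 (SE 0.22) for *Tyrobp* and 1.27 (SE 0.14) for *Cd68*. For *Lyz2*, *Gpnmb* and *Lgals3* it was 1.99, 1.35 and 3.08.

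Affected replicates 1 and 3 held some T cell markers too (64.8 and 70.8 CPM). With these 2 mice also left out (3 affected against 5 unaffected mice), 9 members were still without overlap, against 8.29% of genes tested, and 7 were called higher, against 3.43% of genes. *C1qb* and *Tyrobp*, not called there, had log2 fold changes of 0.80 (SE 0.21) and 0.61 (SE 0.22). Other cell types' markers stood high in single libraries. The B cell sum was 150 CPM in affected replicate 1, against at most 19.9 CPM elsewhere. *Ltf*, the lactoferrin gene, which neutrophils and glandular epithelium express, was at 218 CPM in affected replicate 3 and made up nearly all of the sum of 222 CPM of the 12 neutrophil markers there, while *S100a8*, *S100a9* and *Camp* were at 0.13, 0.434 and 0.0868 CPM and *Ly6g* was at 0 (genes named after their values were seen). The cartilage and airway sum was 35166 CPM in unaffected replicate 23, 2207 CPM in affected replicate 3 and at most 139 CPM elsewhere, and skeletal muscle markers summed to 28130 CPM in affected replicate 6, against at most 12274 CPM in the other mice. The part of these tissues in the members' values was not tested.

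**Figure D4:**
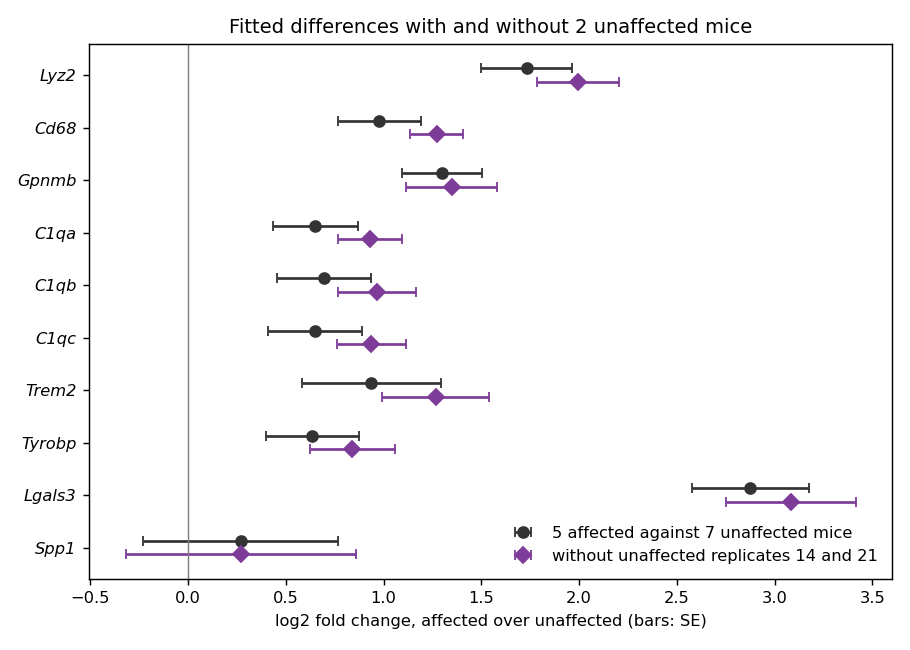
Fitted log2 fold change of each gene, affected over unaffected mice, with its SE, from all 12 mice (circles) and without unaffected replicates 14 and 21 (diamonds). The values are larger without those 2 mice for all members except *Spp1*, which stays at 0.27.

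The low *Spp1* of affected replicate 4 coincided with an absence of parathyroid markers. *Pth*, which encodes parathyroid hormone, was at 0.723 CPM in that mouse and at 1763 to 3934 CPM in the other affected mice, and *Gcm2*, the factor that defines the parathyroid lineage, was at 0 against 26.8 to 55.0 CPM. The summed level of 5 parathyroid markers was 63.9 CPM in replicate 4 and 4508 to 9565 CPM in the other affected mice, and the sum of 7 C cell markers was also lowest there (1420 CPM). By *Spp1* and by the parathyroid sum alike, affected replicate 4 was lowest, replicate 5 next and replicate 6 highest, while replicates 1 and 3 changed places.

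Among the 7 unaffected mice, replicate 21 was lowest for both *Spp1* (27.6 CPM) and the parathyroid sum (3682 CPM), and replicate 14 was highest for both (45.2 and 8100 CPM). Over these mice the correlation of *Spp1* with the parathyroid sum on the log2 scale was 0.68 (Pearson, exact two-sided permutation p = 0.0726, adjusted over the 10 members 0.363) and 0.82 by rank (Spearman, exact permutation p = 0.0341, adjusted 0.341). Without the 2 mice farthest from the median, replicates 14 and 21, r was 0.24, so the relation rests on those mice and did not pass. No other member passed either, with adjusted p from 0.131 (*Trem2*, r = -0.91) upward. How far parathyroid tissue sets the *Spp1* level was not tested beyond these values.

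Spread among unaffected mice is independent of the contrast by which the members were chosen, so the relations between members were tested there, over 45 pairs and 7 mice. Of the 45 Pearson correlations of log2 CPM, 36 were positive, with a median of 0.70, and 8 passed a threshold of 0.05 after adjustment (exact two-sided permutation test over all orders of the mice). No Spearman correlation passed after adjustment, with 10 at an unadjusted p under 0.05. The 8 pairs were formed by the 3 C1q genes, *Cd68* and *Tyrobp*.

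The highest correlation was between *C1qa* and *C1qb* (r = 0.97, exact permutation p = 0.000794, adjusted 0.0179, and rho = 0.93, p = 0.00675, adjusted 0.152). For *C1qa* and *C1qc* r was 0.94 and for *C1qb* and *C1qc* 0.93 (exact permutation, adjusted p = 0.0179 and 0.0242). *Cd68* correlated with the C1q genes at 0.94 to 0.96, and *Tyrobp* with *C1qb* at 0.93 and with *Cd68* at 0.90. Leaving out the 2 mice farthest from the median, the 8 pairs kept r of 0.78 to 0.91, while the median of all 45 pairs fell to 0.29. Without replicate 21 the median r of all pairs was 0.26, while that of *C1qa* and *C1qb* was 0.94. No pair passed without it (7 at an unadjusted p under 0.05), and none without replicate 22 or 23 (15 each), where the median r was 0.66 and 0.76. Leaving out replicate 24, 25 or 26 also left 6 mice, and 8, 6 and 9 pairs passed there. The smallest adjusted p (exact permutation test) was 0.25 without replicate 21, 0.05 without replicate 22 and 0.0536 without replicate 23. The losses without replicates 22 and 23 were thus at the edge of the threshold. *Spp1* stood apart, with a negative correlation to *Trem2* (-0.63) and *Tyrobp* (-0.61) that did not pass (exact permutation, adjusted p = 0.152 and 0.242).

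Genes with the pattern most like that of a member over the 7 unaffected mice were listed from 15518 genes, the 3 highest Pearson correlations for each. For the mean of the C1q genes these were *Trim12a* (0.99), *Gm37303* (0.98) and *Mrc1* (0.98), the last being the mannose receptor of tissue macrophages. For *Lyz2* they were *F13a1* (0.99), the coagulation factor XIII subunit made by monocytes and macrophages, *Tdrkh* (0.98) and *Kdm4a* (0.98), and for *Trem2* *Pld4* (0.98), *Thumpd3* (0.98) and *Ifi213* (0.97). *Cd68* was closest to *Slfn8*, *Jarid2* and *Slc16a6* (0.98 to 0.99), *Tyrobp* to *Olfml2a*, *CAAA01147332.1* and *Mms19* (0.97 to 0.98), *Gpnmb* to *Gm42908*, *Rhot1* and *Immp1l* (0.96 to 0.97), *Lgals3* to *Ciita*, *Akna* and *Gm43330* (0.98 to 0.99) and *Spp1* to *Casd1*, *Hexdc* and *Gm37758* (0.96 to 0.98). With so many genes compared over 7 mice, these values are a description only.

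The unaffected B6NTac mouse is the only one in which colony and phenotype part. For 8 members its level lay inside the range of the 6 B6NCrl mice. *Spp1* (45.2 CPM) was just above the B6NCrl maximum of 44.7 CPM, and *Trem2* (0.668 CPM) just below the minimum of 0.693 CPM. For the members without overlap it had 60.4 CPM of *Lyz2*, 6.26 CPM of *Gpnmb* and 4.84 CPM of *Lgals3*, against affected minima of 110, 10.98 and 15.0 CPM. With 1 mouse this has no test. The study's methods call that mouse a KO without naming the gene, and its library was the shallowest and held thymus markers.

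The transcript length behind the FPKM values (count divided by FPKM and by the total count) was the same in every mouse for 3 members. It equalled the full exon length of 1316, 1040 and 1088 bases for *Lyz2*, *C1qa* and *C1qb*. For *Cd68* it was 1230 bases in each of the affected mice, while the unaffected mice had 1204 ± 25.8 bases (SD, n = 7), from 1154 to 1230. For *Gpnmb*, whose exons span 6514 bases, it was 3110 ± 292 bases (SD, n = 5) in affected and 3185 ± 355 (SD, n = 7) in unaffected mice, and for *Trem2* 1587 ± 258 and 1822 ± 495 bases, in both cases a difference smaller than the spread. The means of the other 4 members differed by at most 2.3 bases between the groups.

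Around the members, genes of the classical complement pathway were mostly higher in affected thyroids. The lists here and below were chosen with earlier results of these data known, and some genes are on more than 1 list. Their shares and calls are therefore a description and are not separate evidence. Of 23 tested genes of that list, which like the others holds none of the 10 members, 12 rose and 1 fell (edgeR, threshold 0.05), 52.2% higher against 7.63% of all genes tested, with 6.1% lower. The largest changes were in *Calr* (log2 fold change 2.25, SE 0.25, edgeR adjusted p = 0.000217), whose product calreticulin binds C1q at the surface of dying cells but is foremost a chaperone of the endoplasmic reticulum, and in *C5ar1* (1.18, SE 0.20, adjusted p = 0.00205), the receptor of the C5a peptide. *Cd55* (1.02, SE 0.26), a brake on complement, and *Cfb* (1.04, SE 0.32), of the alternative pathway, rose as well. *Calr* rose from 265 ± 71.2 CPM (SD, n = 7) to 1266 ± 461 CPM (SD, n = 5) and *C5ar1* from 2.42 ± 0.685 to 5.49 ± 0.962 CPM, both without overlap.

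Some proteins that act directly with C1q, all of them past the threshold, were named after their values were seen. *C1ra* (0.62, SE 0.13, edgeR adjusted p = 0.00774) and *C1s1* (0.42, SE 0.10, adjusted p = 0.0194) encode the proteases of the C1 complex, *Serping1* (0.74, SE 0.13, adjusted p = 0.00286) their inhibitor and *C4b* (0.86, SE 0.23, adjusted p = 0.0304) their substrate, and all rose. The 10 genes of the complement list that were not called included *C1qbp* (0.27, SE 0.11), *Cd93* (0.16, SE 0.11) and *Megf10* (0.80, SE 0.47). *C2* (0.62, SE 0.28) and *C3* (0.54, SE 0.28) were not called either. *Cd46*, a regulator of complement, was the gene that fell (-0.47, SE 0.11, adjusted p = 0.0175). The calls of *Cfb*, *Cd55* and *C4b* were lost when any of 9, 4 and 4 mice was left out. *C1s1*, *C2*, *C3*, *Cfb*, *Cd55* and *Cd46* are marked as confounded with an overlapping gene.

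In the lysosome list, 11 of 36 genes rose and 1 fell, with a median log2 fold change of 0.18. The largest were *Ctss* (0.85, SE 0.25, edgeR adjusted p = 0.0396), the cathepsin of antigen-presenting cells, *Ctsz* (0.68, SE 0.12, adjusted p = 0.00322) and *Lgmn* (0.56, SE 0.09, adjusted p = 0.00181), an asparaginyl endopeptidase. *Hexa*, a subunit of a lysosomal hexosaminidase named after its value was seen, rose as well (0.51, SE 0.11, adjusted p = 0.0103). Each of the changes named here was smaller than that of *Lyz2* or *Gpnmb*. Follicular cells, which digest thyroglobulin in lysosomes, express many of these genes too. The call of *Ctss* was lost when any of 10 mice was left out. *Ctss*, *Ctsz* and *Hexa* are marked as confounded.

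Of the lysozyme, scavenger and Fc receptor genes, 8 of 14 passed, all of them higher. *Lyz1*, the paralog of *Lyz2*, had the largest change (1.93, SE 0.41, edgeR adjusted p = 0.00931), at 5.49 ± 3.24 CPM (SD, n = 5) against 1.45 ± 0.673 (SD, n = 7). *Cd14*, the co-receptor for lipopolysaccharide, rose by 1.07 (SE 0.26), *Fcgr3*, a receptor for IgG, by 0.94 (SE 0.16) and *Cd163*, the scavenger receptor for haemoglobin, by 0.91 (SE 0.13) on the log2 scale. All 4 were without overlap between the groups.

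Genes of lipid-associated phagocytes rose in 8 of 23 cases. *Mmp12*, the macrophage elastase, changed most (2.34, SE 0.37, edgeR adjusted p = 0.00154), from 1.23 ± 0.532 CPM (SD, n = 7) to 6.21 ± 3.23 CPM (SD, n = 5), followed by the scavenger receptor *Msr1* (1.35, SE 0.27), the chemokine *Ccl6* (1.25, SE 0.19) and *Plin2* (1.19, SE 0.29), which coats lipid droplets. *Mmp12* and *Ccl6* are marked as confounded. *Plin2*, which adipocytes also express, was at 183, 58.0, 41.5, 103 and 76.6 CPM in affected replicates 1, 3, 4, 5 and 6, where 10 adipocyte markers summed to 4631, 905, 680, 1881 and 2252 CPM, against 887 to 1601 CPM in unaffected mice. It was not called without replicates 14 and 21, and the part of fat in it was not tested.

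Of the genes of TREM2 and TYROBP signalling, 3 of 19 passed. These were *Cd300lb* (1.36, SE 0.24), an activating receptor that pairs with TYROBP, *Btk* (1.34, SE 0.41), a tyrosine kinase, and *Plcg2* (0.47, SE 0.13), a phospholipase, and all of them rose and are marked as confounded. *Btk* was at 6.17 CPM in affected replicate 1, the library whose B cell markers summed to 150 CPM. It was at 1.16 to 1.69 CPM in the other affected mice and at most 1.66 CPM in unaffected mice. The part of B cells in it was not tested. The call of *Btk* was lost without any of 9 mice, that of *Plcg2* without any of 5.

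Among partners of the secreted members, few changed. Of 10 tested galectin genes and partners none was called by edgeR, by DESeq2 or by limma on log2(FPKM + 1), and 1 had an unadjusted edgeR p under 0.05. For the osteopontin receptors and relatives, *Itgb1* (0.28, SE 0.07) and *Itga5* (0.78, SE 0.24), integrin subunits, rose among 10 tested, and neither was called without replicates 14 and 21. The call of *Itga5* was lost without any of 10 mice and that of *Itgb1* without affected replicate 3 or 5. *Mepe*, a relative of *Spp1*, had no count in any mouse. Over all 7 pathway lists, 44 of 134 distinct genes tested rose and 2 fell, with a median log2 fold change of 0.40.

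**Figure D5:**
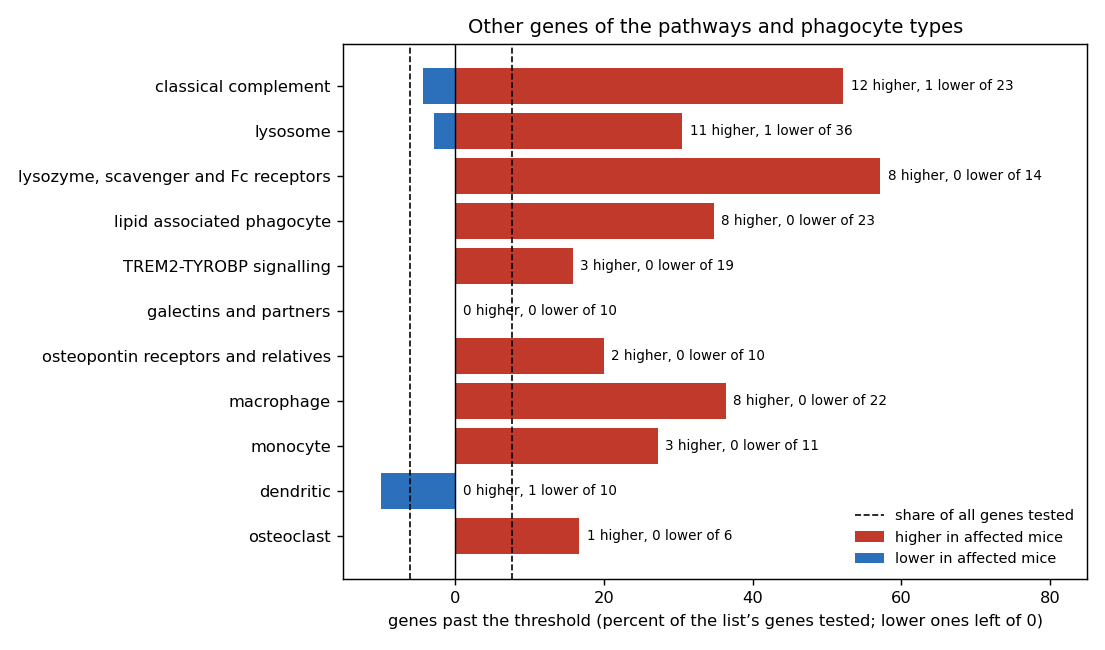
Share of the tested genes of each list that were higher (right) or lower (left) in affected mice by edgeR at an adjusted p of 0.05, with the counts beside each bar and dashed lines at the shares of all genes tested, 7.63% and 6.1%. The complement and the scavenger receptor lists have the largest shares, with 12 of 23 and 8 of 14 genes higher, and no galectin gene passed. The lists were chosen with earlier results of these data known and share some genes, so the shares are a description.

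Markers of macrophages themselves rose in 8 of 22 cases (36.4%), and fibroblast markers rose in a similar share, 4 of 10 (40.0%). *Lyve1* (1.61, SE 0.28, edgeR adjusted p = 0.0033), *Folr2* (1.05, SE 0.25) and *Pf4* (0.94, SE 0.22), genes of tissue-resident macrophages, passed together with *Cd14*, whereas *Adgre1*, the F4/80 antigen, did not (0.50, SE 0.23) and *Cx3cr1* was at -0.40 (SE 0.24). *Lyve1*, also a marker of lymphatic endothelium, rose from 5.51 ± 0.245 CPM (SD, n = 7) to 16.8 ± 10.2 CPM (SD, n = 5). Without replicates 14 and 21, where 5.61% of all genes were higher, 13 of 22 macrophage markers rose. In that fit 8 of 24 complement, 9 of 36 lysosome, 8 of 13 scavenger and Fc receptor, 10 of 23 lipid-associated and 4 of 19 TREM2 and TYROBP signalling genes rose, with 2 of 10 monocyte and 1 of 10 fibroblast markers. *Adgre1* and *Cx3cr1* were named after their values were seen.

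In the monocyte list *Nr4a1* (1.51, SE 0.44), *Fn1* (1.04, SE 0.20) and *F13a1* (1.02, SE 0.29) rose among 11 tested, *Fn1* being made by fibroblasts and epithelium as well. The calls of *Nr4a1* and *F13a1* were lost without any of 9 and 8 mice. Of 6 osteoclast markers tested *Nfatc1* rose (0.50, SE 0.08), and of 10 dendritic cell markers *Zbtb46* fell (-0.44, SE 0.11). No neutrophil (3 tested), T cell (7) or B cell (3) marker passed in edgeR. By DESeq2, 2 neutrophil and no T or B cell markers passed, and 2, 0 and 0 of them had an unadjusted edgeR p under 0.05.

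Markers of the gland were present in every mouse. The summed level of 12 thyrocyte markers, dominated by *Tg*, was 101476 to 257289 CPM in affected and 211455 to 305360 CPM in unaffected mice, and *Slc26a4*, the pendrin anion exchanger, was the largest change in that list (3.69, SE 0.65, edgeR adjusted p = 0.00301) at levels of 3.34 CPM or less. In the other lists the largest change that passed was that of *Derl3* for plasma cells (4.36, SE 0.37), a gene of protein degradation in the endoplasmic reticulum, *Scgb3a1* for cartilage and airway (6.60, SE 1.70), *Dpt* for fibroblasts (0.74, SE 0.22), *Kdr* for endothelium (-0.60, SE 0.18) and *Ret* for C cells (-0.80, SE 0.23). Of these, *Derl3* was called whichever mouse was left out, while the calls of *Scgb3a1*, *Dpt*, *Kdr* and *Ret* were lost without any of 7, 10, 9 and 9 mice. *Scgb3a1* reached 133 CPM in affected replicate 3 and was at 13.5 CPM or less in every other mouse. *Fcgr3*, *Itga5*, *Folr2*, *F13a1*, *Fn1*, *Nfatc1*, *Zbtb46* and *Dpt* are also marked as confounded with an overlapping gene.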

How the data were processed

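Thyroid RNA from 12 mice was sequenced with 1 library per mouse. Alignment and quantification were done by the authors with OmicSoft Array Studio (OSA4, Mouse.B39, Ensembl.R96). The authors deposited estimated counts per gene without normalization, of which 81.3% to 84.9% per mouse were whole. A second deposited table gives FPKM, which the authors scaled to transcript length and library total. Whether counting used the strand is not given in the sources used here. The authors' table marks genes that overlap another gene as confounded. The number of sample columns left unused was 0. The labels give the colony and phenotype of the mice and a code that sets replicate 14 apart. The edgeR p-values compare the difference between the groups with the spread between mice within them. That difference mixes phenotype with colony, and markers of other tissues varied between the libraries.

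Counts were rounded, filtered with filterByExpr (minimum count 10), scaled by TMM factors and fitted with edgeR's quasi-likelihood test (version 4.0.16 under R 4.3.3) for phenotype, adjusted by the Benjamini-Hochberg method over 19661 genes at a threshold of 0.05. Log2 CPM had a prior count of 2. The scripts were tested on simulated data. Alternatives were DESeq2 1.42.0, other scalings and filters, limma 3.58.1 on log2(FPKM + 1) and log2(FPKM + 0.1), B6NCrl controls only and leaving out each mouse.

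The members and the gene lists were chosen with earlier results of these data known. Genes named were the members, at most 4 per pathway list and per macrophage, monocyte, neutrophil, dendritic, osteoclast, T cell and B cell list with the largest change past the threshold, at most 1 per other list, and the 3 genes most correlated with each member. A gene withheld from the text is not reported here. Correlations used exact permutation tests over 7 unaffected mice. Promoters are from RefSeq.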

Additional observations from a re-analysis of the deposited data

Results flagged for a closer look

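In 20 sets of values (10 members in the affected and in the unaffected mice), the distance of the highest or lowest mouse to its neighbour on the log2 CPM scale, as a share of the whole range, was beyond Dixon's 95% limit in 2, and chance gives about 1 in 20. *Spp1* was so in affected replicate 4 (share 0.783, limit 0.71 for 5 mice), at 3.05 CPM against 33.2 CPM or more in the other affected mice, in the library whose parathyroid markers summed to 63.9 CPM. *Trem2* was so in unaffected replicate 21 (share 0.667, limit 0.568 for 7 mice), at 2.54 CPM against 1.06 CPM or less in the other unaffected mice, in 1 of the 2 libraries with thymus markers. The part of either tissue in these values was not tested.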

How the results depend on the processing

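All members except *Spp1* kept a positive log2 fold change in every alternative run, 225 of 229 values in all being positive and within 1 SD between mice of the reported value. *Spp1* turned negative on log2(FPKM + 1) with a filter (-0.19) or without (-0.19), on log2(FPKM + 0.1) (-0.27) and without the 4 mice with T cell markers (-0.12). The members' median stayed between 0.66 and 1.117. *Lyz2*, *Cd68*, *Gpnmb* and *Lgals3* were called in all 23 alternatives, *C1qa* in 5, *C1qb* and *C1qc* in 4, *Trem2* in 3, *Tyrobp* in 2 and *Spp1* in none. By DESeq2 the 3 C1q genes were called, and without replicate 21 all of the C1q genes, *Trem2* and *Tyrobp* were. Among all genes, 2046 were called higher by DESeq2 and 1252 without replicate 21, against 1500 in the main fit. Over the alternatives this number ran from 607 (library totals without *Tg*) to 2046, and nothing is read from the member calls. The cause of these changes in the calls was not tested.

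Members without overlap numbered 3 to 7 with 1 mouse left out (7 without unaffected replicate 21), and 9 without replicates 14 and 21 (5.48% of all genes) or without all 4 mice with T cell markers (8.29%). With all 12 mice, 3.78% of genes tested had all affected above all unaffected mice. That share was not counted with 1 mouse left out, and nothing is read from those member counts. Genes called among all genes (2699) numbered 1445 by limma on log2(FPKM + 1) without a filter, 1019 without the 4 mice, and 1774 (without affected replicate 5) to 3390 with 1 mouse left out. Pathway list genes called (46) numbered 25 with library totals without *Tg*, 29 by limma at either pseudocount, 23 without the filter and 30 without the 4 mice. Macrophage markers called higher (8) numbered 5 with library totals without *Tg*, 5 by limma at the smaller pseudocount, 2 without its filter and 13 without replicates 14 and 21. Correlated pairs (8) numbered 13 without TMM factors, 0 with the B6NCrl mice only (18 at an unadjusted p under 0.05), and 0 to 9 with 1 mouse left out, being 0 without replicate 21, 22 or 23. Leaving out replicate 24, 25 or 26 also left 6 mice, and 8, 6 and 9 pairs passed there. The smallest adjusted p (exact permutation test) was 0.05 for the B6NCrl mice and without replicate 22, 0.0536 without replicate 23 and 0.25 without replicate 21. Of 40 named list genes called, 26 were called whichever mouse was left out, 28 without replicates 14 and 21, and 0 changed sign in any alternative. No paired analysis was possible because the labels give no litter, batch or other pairing of the mice. Depth limits *Trem2* most, at 8 counts in the shallowest library.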
